A study of Mus musculus with 6 samples.

Results

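The 10 genes described here are regulators and hormones of the amino acid stress response: Atf4, Atf5, Atf3, Ddit3, Nupr1, Trib3, Chac1, Sesn2, Gdf15 and Adm2. They were chosen by gene symbol from the 20950 entries of the deposited table, and each symbol matched 1 row. All 10 belong to the 10731 genes that averaged 1 FPKM or more, the set tested below, and no value of the 10 in any library was below 2.13 FPKM. C2C12, an established line of mouse myoblasts able to form myotubes in low serum, was sequenced as mRNA in 6 libraries of 5 conditions. Growing cells were kept in DMEM with 10% FBS (fetal bovine serum). Differentiating cells, moved to low serum before confluence, received 2% HS (horse serum), 2% HS + exosome, 0.2% FBS or 0.2% FBS + exosome. The exosomes came from FBS by precipitation with commercial kits and were added in the amount that 10% FBS contains. Only 0.2% FBS + exosome had 2 libraries, called replicates 1 and 2, and the other 4 conditions had 1 each. Whether replicates 1 and 2 were separate cultures is not given in the sources used here, so their spread may be technical.

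When amino acids run short, or when the endoplasmic reticulum or the mitochondria are stressed, protein kinases phosphorylate the translation factor eIF2. General translation then slows while translation of the Atf4 mRNA, which has upstream open reading frames, increases. ATF4 is a basic leucine zipper (bZIP) transcription factor that pairs with C/EBP proteins on composite DNA elements of genes for amino acid synthesis, amino acid uptake and tRNA charging. It also switches on further regulators, such as CHOP (the product of Ddit3), Trib3 and Chac1, and secreted peptides, among them GDF15. In muscle, GDF15 and FGF21 are known as circulating signals of such stress. Because ATF4 is controlled largely at translation, its mRNA level is not a measure of the protein.

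The data show opposite changes with exosomes in the 2 media. In 2% HS the level of each of the 10 genes was higher with exosomes than without, by 1.46-fold (Atf4) to 6.17-fold (Trib3), beside 41.3% of all genes tested that were higher. With the libraries scaled to the same 75th percentile, all 10 were still higher, beside 49.0% of all genes tested. In 0.2% FBS the levels of 8 of the 10 genes were lower in both exosome libraries, beside 27.5% of all genes tested (9 of the 10 and 37.2% with the libraries scaled to the same 75th percentile), and Trib3, Chac1 and Adm2 passed the test there with falls to 0.274 to 0.481 of the control (4.32% of all genes tested were called lower). The change in 0.2% FBS minus the change in 2% HS passed the test for 7 of the 10 genes (Trib3, Adm2, Atf3, Gdf15, Chac1, Atf5 and Sesn2), against 0.867% of all genes tested. Under 3 of the 5 other settings with a test, these 7 calls became 3, 0 and 0, and under 2 of them the 3 falls became 0. The exceptions in 0.2% FBS were Nupr1, level with the control in replicate 1, and Ddit3, which was higher in all 3 exosome libraries. The 2% HS + exosome condition is 1 library, so the medium and that single culture cannot be told apart.

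**Figure D1:**
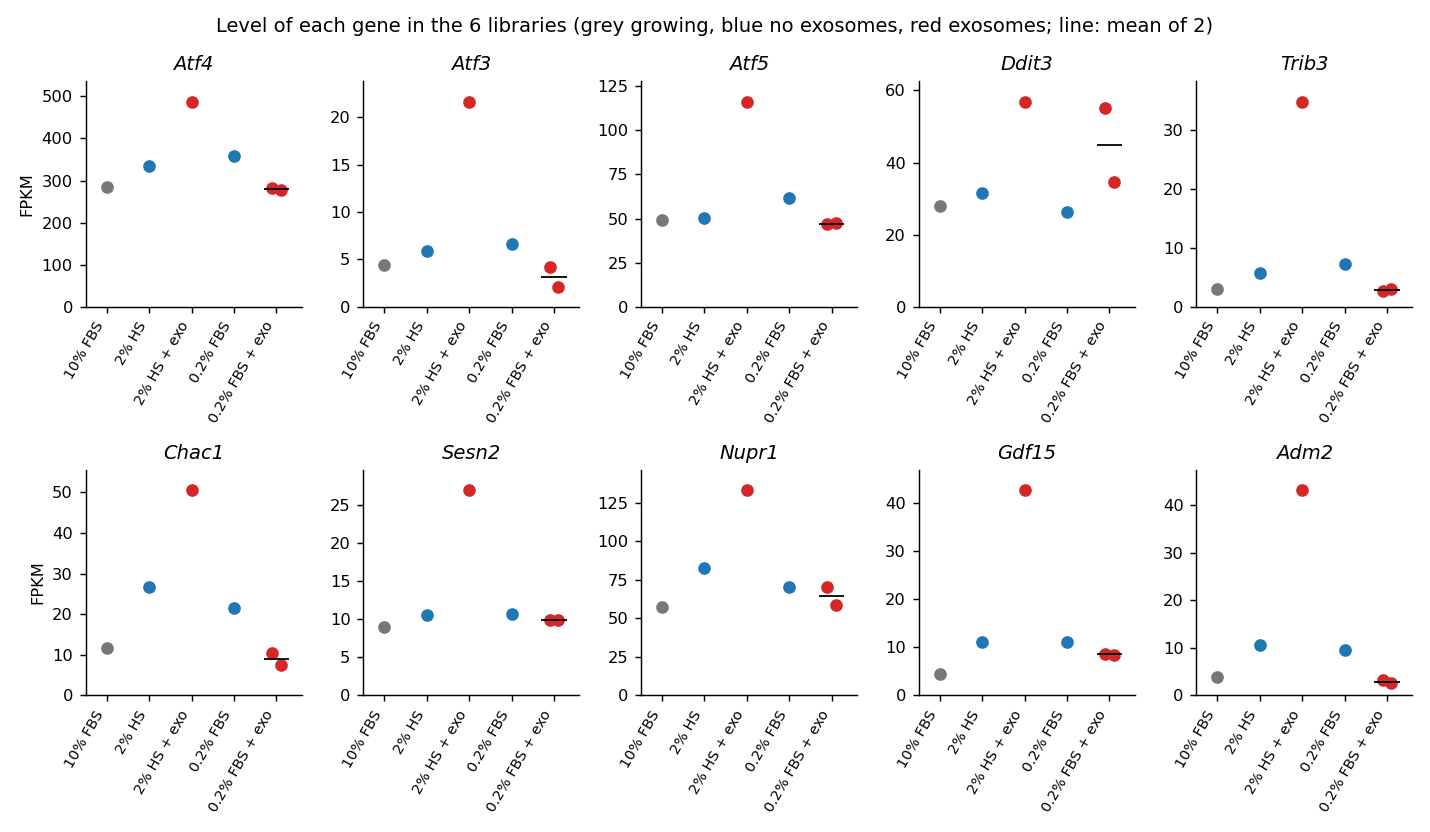
Each panel shows 1 gene, with the level in FPKM on a linear axis from 0 and the 5 conditions along the horizontal axis (exo, exosome). Each point is 1 library (grey, growing; blue, without exosomes; red, with exosomes) and the short line is the mean of the 2 libraries of 0.2% FBS + exosome. The 2% HS + exosome point is the highest of the 6 in every panel, from 21.7 FPKM for Atf3 to 487.9 FPKM for Atf4.

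The promoters of the 10 genes were searched for the elements that ATF4 and its partners are known to bind. RefSeq promoters of GRCm38.p6, the build of mm10, hold 250 bases before and 50 after each start site, and 1 or more was found for each of the 10 genes. The letters searched, on both strands, were TGATGNAA (the C/EBP-ATF element), TGACGNAA (a C/EBP-CRE composite) and TGACGTCA (the cAMP response element), and 3.97%, 1.59% and 1.79% of all 32851 promoters hold them. Atf3, Chac1, Nupr1 and Trib3 hold the first, and Atf3 and Chac1 also hold the second. In the other 6 genes none of these letters lies in this window. The 4 stretches below are shown because they hold these matches, and capitals mark the matches. They run 5′ to 3′ along the gene, so that a match on the opposite strand reads as its reverse complement.
Atf3, bases −250 to −1, chr1:191183334-191183583, minus strand: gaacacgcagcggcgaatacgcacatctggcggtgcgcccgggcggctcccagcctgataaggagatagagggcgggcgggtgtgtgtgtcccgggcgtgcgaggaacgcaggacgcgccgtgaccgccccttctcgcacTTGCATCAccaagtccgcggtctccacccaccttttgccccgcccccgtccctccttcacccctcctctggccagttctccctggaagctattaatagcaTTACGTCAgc
Chac1, bases −250 to −1, chr2:119350992-119351241, plus strand: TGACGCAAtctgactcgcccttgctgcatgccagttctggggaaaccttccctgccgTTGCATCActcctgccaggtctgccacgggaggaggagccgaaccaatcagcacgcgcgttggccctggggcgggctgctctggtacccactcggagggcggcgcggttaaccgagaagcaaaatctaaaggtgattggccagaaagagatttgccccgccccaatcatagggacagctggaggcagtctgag
Nupr1, bases −250 to −1, chr7:126625471-126625720, minus strand: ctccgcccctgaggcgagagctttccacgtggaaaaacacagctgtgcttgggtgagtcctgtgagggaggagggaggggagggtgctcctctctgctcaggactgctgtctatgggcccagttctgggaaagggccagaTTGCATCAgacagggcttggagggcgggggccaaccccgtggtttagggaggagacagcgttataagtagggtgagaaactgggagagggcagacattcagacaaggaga
Trib3, a stretch after the start site, chr2:152344028-152344057, minus strand: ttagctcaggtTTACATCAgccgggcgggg
The C/EBP-ATF match begins 110 bases before the start site in Atf3 and in Nupr1, and 193 bases before it in Chac1, each on the strand opposite to the gene. In Trib3 the match lies 15 to 22 bases after the RefSeq start site, which is upstream of the start that GENCODE vM21 gives. The RefSeq start sites used for Atf3 and Nupr1 lie inside the GENCODE genes, downstream of their 5′ ends at 191218039 and 126630861. A match is a description of the sequence and not a bound site.

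The genes lie apart on 7 chromosomes in GENCODE vM21 (mm10). Atf4 runs from 80255184 to 80257541 and Adm2 from 89322720 to 89324731 on chromosome 15, both on the plus strand. Chac1 (119351229 to 119354381, plus strand) and Trib3 (152337422 to 152344032, minus strand) are on chromosome 2. On chromosome 7, Atf5 extends from 44812256 to 44816658 and Nupr1 from 126623249 to 126630861, both on the minus strand. Atf3 is at 191170296 to 191218039 on chromosome 1, Sesn2 at 132492032 to 132510501 on chromosome 4 and Gdf15 at 70629393 to 70632456 on chromosome 8, all minus, and Ddit3 at 127290774 to 127296288 on chromosome 10, plus. Values are FPKM over whole transcripts, exons only. Atf5 shares 571 bases with Nup62 and 272 with Il4i1 on the opposite strand, Ddit3 shares 68 with Mars, and the strand setting of the FPKM calculation is not given in the sources used here. Ddit3 also has a second annotated locus of the same name within it, and Sesn2 overlaps the non-coding Gm12981, so reads of these loci may have been shared.

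The labelled cell type was checked against its markers first. All 8 myogenic markers (Myod1, Myog, Myf5, Des, Cdh15, Chrna1, Myh3 and Tnnt1) were among the genes tested, and their summed level was 2691 FPKM in 10% FBS, 4564 in 2% HS, 4318 in 2% HS + exosome, 4533 in 0.2% FBS, and 2351 and 2020 in replicates 1 and 2 of 0.2% FBS + exosome. The 8 blood and immune markers found summed to between 1.22 and 2.1 FPKM, 4 of them at 0 in every library, and Cd68, at 1.19 to 2.00 FPKM, was the only one tested (log2 change 0.19 in 2% HS and 0.18 in 0.2% FBS). Endothelial, fat and liver markers summed to at most 0.364 FPKM. Estimated depth was between 33500000 and 39400000 reads a library, at 38400000 for 2% HS and 34000000 for 2% HS + exosome. With exosomes in 0.2% FBS, 6 of the 8 markers were lower in both replicates, beside 27.5% of all genes tested. Tnnt1 passed the test, at −1.31 on the log2 scale, and Myh3 was at −1.58 (adjusted p = 0.0586). Myf5 rose by 0.96 (adjusted p = 0.0196) and Cdh15 was at 0.29, whereas in 2% HS the 8 lay between −0.52 (Myf5) and 0.35 (Myog). The number of markers called lower in 0.2% FBS was 1 here, 2 with a pseudocount of 0.1, 3 after scaling to the same 75th percentile, 5 without a mean-variance trend, and 0 with values raised to 1 FPKM or without a filter. Over all genes these calls numbered 464 (4.32%), 491, 803 (7.48%) and 412 in the same order, then 0 with raised values and 240 without a filter. Myf5 was not called higher with raised values or without a filter. The part of these markers in the results was not tested. In a bulk culture, fewer cells expressing a gene and less RNA per cell cannot be told apart.

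Among the transcription factors, Atf4 had the highest level. It was at 283.5 FPKM in 10% FBS, 334.1 in 2% HS, 487.9 in 2% HS + exosome, 357.8 in 0.2% FBS, and 281.7 and 277.1 in replicates 1 and 2 of 0.2% FBS + exosome. With exosomes its log2 change, on the log2(FPKM + 1) scale used throughout, was 0.54 in 2% HS and −0.36 in 0.2% FBS (SD 0.02, n = 2, SE 0.27, adjusted p = 0.404 in limma). Atf4 thus lay above every other library in 2% HS + exosome and below its own control in both exosome libraries of 0.2% FBS, but the difference between the media, −0.90 (SE 0.41, adjusted p = 0.27), did not pass the test.

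Atf5, a related bZIP factor known for its part in mitochondrial stress, was at 49.3 FPKM in 10% FBS, 50.1 in 2% HS, 116 in 2% HS + exosome, 61.7 in 0.2% FBS, and 46.7 and 47.4 in the exosome replicates. The 5 other libraries lay between 46.7 and 61.7 FPKM, and 2% HS + exosome stood 2.32-fold above its control. The log2 change was 1.20 in 2% HS and −0.38 in 0.2% FBS (SD 0.02, n = 2, SE 0.17, adjusted p = 0.17), and the difference of −1.58 (SE 0.26) passed with an adjusted p of 0.0357. Atf3, a stress-induced bZIP factor that can repress transcription, was lower in abundance, at 4.37 FPKM in 10% FBS, 5.85 in 2% HS, 21.7 in 2% HS + exosome and 6.63 in 0.2% FBS. Its exosome replicates in 0.2% FBS were at 4.15 and 2.13 FPKM, below the control but apart from each other. The log2 change was 1.73 in 2% HS and −0.93 in 0.2% FBS (SD 0.51, n = 2, SE 0.27, adjusted p = 0.0581, and 0.0311 after scaling to the same 75th percentile), and the difference of −2.65 (SE 0.41) had an adjusted p of 0.0295.

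Ddit3 encodes CHOP, a C/EBP relative that takes part in cell death under prolonged stress. Its level was 28.1 FPKM in 10% FBS, 31.6 in 2% HS, 56.9 in 2% HS + exosome, 26.4 in 0.2% FBS, and 55.1 and 34.5 in replicates 1 and 2 of 0.2% FBS + exosome. Ddit3 was therefore higher than its control in all 3 exosome libraries, but replicate 1 lay close to 2% HS + exosome and replicate 2 close to 2% HS. Its log2 change was 0.83 in 2% HS, and in 0.2% FBS 1.03 for the first replicate and 0.38 for the second (mean 0.71, SD 0.47, n = 2, SE 0.26, adjusted p = 0.102), and the difference between the media was −0.12 (SE 0.39, adjusted p = 0.898). That difference was 0.21 from replicate 1 alone and −0.45 from replicate 2 alone. Endoplasmic reticulum chaperones also set replicate 1 apart. Hspa5, the chaperone BiP, was at 381 FPKM in 0.2% FBS, 675 in replicate 1 and 287 in replicate 2. Over 16 genes of endoplasmic reticulum stress replicate 1 had a median log2 change of 0.65 and replicate 2 one of −0.01, beside −0.10 in 2% HS, and their part in the Ddit3 values was not tested.

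Nupr1 encodes a small chromatin-associated protein induced by many stresses. It was at 57.1 FPKM in 10% FBS, 82.7 in 2% HS, 133 in 2% HS + exosome, 70.1 in 0.2% FBS, and 70.3 and 58.6 in the exosome replicates. Here the 0.2% FBS libraries overlapped, replicate 1 lying level with the control. The log2 change was 0.68 in 2% HS and −0.13 in 0.2% FBS (SD 0.18, n = 2, SE 0.20, adjusted p = 0.710), and the difference of −0.81 (SE 0.30, adjusted p = 0.201) did not pass.

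Trib3, a pseudokinase that binds ATF4 and the kinase AKT, had the largest log2 change of the 10 genes in 2% HS. Its level was 3.02 FPKM in 10% FBS, 5.65 in 2% HS, 34.9 in 2% HS + exosome, 7.32 in 0.2% FBS, and 2.71 and 2.97 in the exosome replicates. The exosome libraries of the 2 media thus lay at opposite ends of the range, a 12.9-fold span, with the replicates of 0.2% FBS close together and near the growing cells. The log2 change of 2.43 in 2% HS ranked 3 among the 10731 genes tested, and that in 0.2% FBS was −1.12 (SD 0.07, n = 2, SE 0.16, adjusted p = 0.00895). For the difference, −3.55 (SE 0.25), the adjusted p was 0.0036. The reads behind these values were estimated at 397 and 2164 without and with exosomes in 2% HS, and at 489, 174 and 182 in 0.2% FBS and its exosome replicates.

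Chac1, an enzyme that breaks down glutathione, was at 11.6 FPKM in 10% FBS, 26.8 in 2% HS, 50.5 in 2% HS + exosome, 21.6 in 0.2% FBS, and 10.4 and 7.53 in the exosome replicates. Both of these were below the control, at 0.481 and 0.349 of it, and below the growing cells, while in 2% HS the level was 1.89-fold higher with exosomes. The log2 change was 0.89 in 2% HS, under the threshold of 1, and −1.20 in 0.2% FBS (SD 0.29, n = 2, SE 0.20, adjusted p = 0.0133). The difference of −2.09 (SE 0.30) had an adjusted p of 0.0265. Sesn2 encodes a leucine sensor that restrains the growth kinase complex mTORC1. Its 5 libraries other than 2% HS + exosome lay between 9.03 and 10.7 FPKM (9.03 in 10% FBS, 10.6 in 2% HS, 10.7 in 0.2% FBS, 9.96 and 9.86 in the exosome replicates), and 2% HS + exosome was at 26.9. Only the 2% HS change, 1.27 on the log2 scale, passed the fold threshold, and the change in 0.2% FBS was −0.11 (SD 0.01, n = 2, SE 0.16, adjusted p = 0.69). The difference, −1.37 (SE 0.24, adjusted p = 0.0395), combines a change of that size in 2% HS with a small one in 0.2% FBS.

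Both hormones were several-fold higher with exosomes in 2% HS. Gdf15, a TGF-beta family hormone that lowers appetite through a brainstem receptor, was at 4.45 FPKM in 10% FBS, 11.1 in 2% HS, 42.6 in 2% HS + exosome, 11.1 in 0.2% FBS, and 8.69 and 8.43 in the exosome replicates. Its level with exosomes in 0.2% FBS stayed above that of growing cells, whereas the level in 2% HS + exosome was 3.83-fold above its control. The log2 change was 1.85 in 2% HS and −0.34 in 0.2% FBS (SD 0.03, n = 2, SE 0.16, adjusted p = 0.179), and the difference of −2.19 (SE 0.24) had an adjusted p of 0.0127. Adm2, or intermedin, a vasodilator peptide of the calcitonin family, was at 3.90 FPKM in 10% FBS, 10.7 in 2% HS, 43.2 in 2% HS + exosome, 9.65 in 0.2% FBS, and 3.15 and 2.64 in the exosome replicates. Of the 10 genes it had the widest span, 16.3-fold, and the largest fall in 0.2% FBS. That change was −1.45 (SD 0.13, n = 2, SE 0.17, adjusted p = 0.00694), against 1.92 in 2% HS, and the difference was −3.37 (SE 0.26, adjusted p = 0.0036). The estimated reads for Adm2 were 452 and 1611 without and with exosomes in 2% HS, and 388, 121 and 97 in 0.2% FBS and its exosome replicates.

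**Figure D2:**
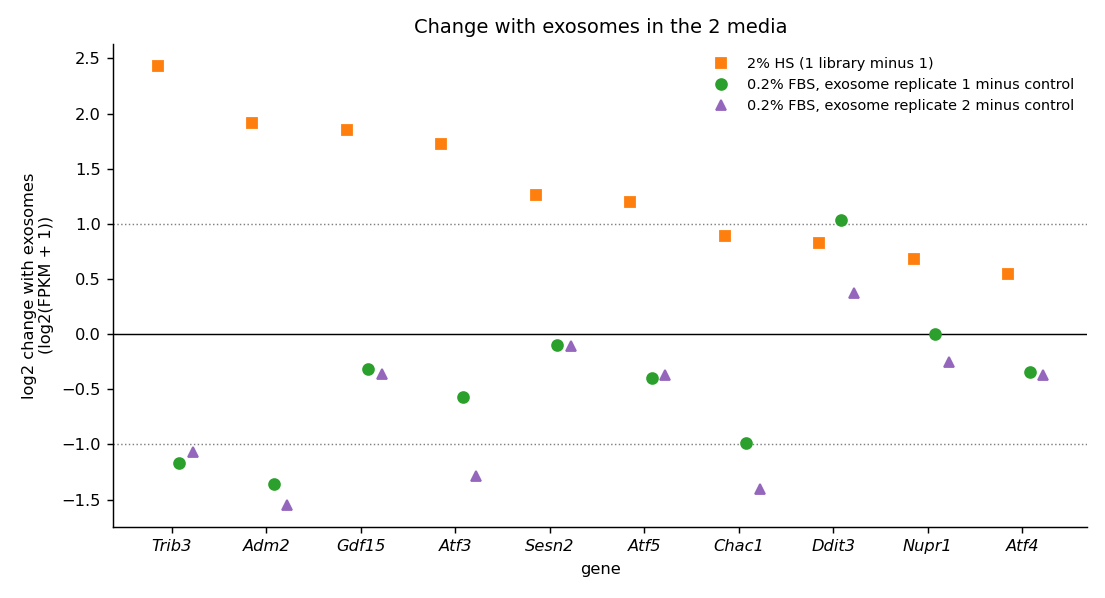
Log2 change with exosomes on the log2(FPKM + 1) scale for each gene, ordered by its change in 2% HS, with squares for 2% HS (1 library minus 1) and circles and triangles for replicates 1 and 2 in 0.2% FBS, each minus the same control. Dotted lines mark the threshold of 1 in either direction. The squares lie between 0.54 and 2.43, and the circles and triangles at or below 0 for all genes but Ddit3, with Nupr1 in replicate 1 at 0.00.

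Counted over the 10 genes, 6 had a log2 change above 1 with exosomes in 2% HS (Trib3, Adm2, Gdf15, Atf3, Sesn2 and Atf5), against 38 (0.354%) of all genes tested, and 0 were below −1, against 32 (0.298%). Both replicates of 0.2% FBS + exosome were below −1 for Trib3 and Adm2, against 173 (1.61%) of all genes, and above 1 for 0 of the 10, against 96 (0.895%). Higher in 2% HS and lower in both replicates of 0.2% FBS were 8 of the 10, against 1293 (12%) of all genes. The median change of the 10 was 1.23 in 2% HS, −0.37 in replicate 1 and −0.37 in replicate 2, beside −0.04, 0.09 and 0.18 for all genes tested. In limma, 3 of the 10 were lower in 0.2% FBS with an adjusted p under 0.05, against 464 (4.32%) of all genes, and 0 were higher, against 880 (8.20%). For the difference between the media these numbers were 7 lower, against 93 (0.867%), and 0 higher, against 32 (0.298%). The genes were chosen with earlier results of these data known, so the counts describe them and carry no test of their own. Scaling the libraries to the same 75th percentile moved the median of all genes in 0.2% FBS from 0.14 to 0.04 and brought Nupr1 below its control in both replicates, so that 9 of the 10 were higher in 2% HS and lower in 0.2% FBS (19.1% of all genes).

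The limma fit with 1 mean for each condition takes its spread from replicates 1 and 2 alone (1 residual degree of freedom) and assumes the same for the single libraries. The 7 calls for the difference fell to 3 (Trib3, Adm2 and Gdf15) without a mean-variance trend, where 40 genes in all were called lower. They fell to 0 with values below 1 FPKM raised to 1 in place of a pseudocount, where 0 genes in all were called. With no filter on low values they also fell to 0, although 339 genes in all were called lower. The 3 calls in 0.2% FBS fell to 0 with raised values and without a filter, beside 0 and 240 falls over all genes. None of the 7 differences changed direction. A second limma model, which gave both media the same exosome effect, used the 5 libraries of differentiating cells and called 0 of the 10 and 0 (0.00%) of all genes at an adjusted p under 0.05. At an unadjusted p under 0.05 it gave 709 genes, 6.61% of all genes tested. Ddit3 was the only one of the 10 among them (log2 change 0.76, SE 0.22, adjusted p = 0.705), a count near that share.

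**Figure D3:**
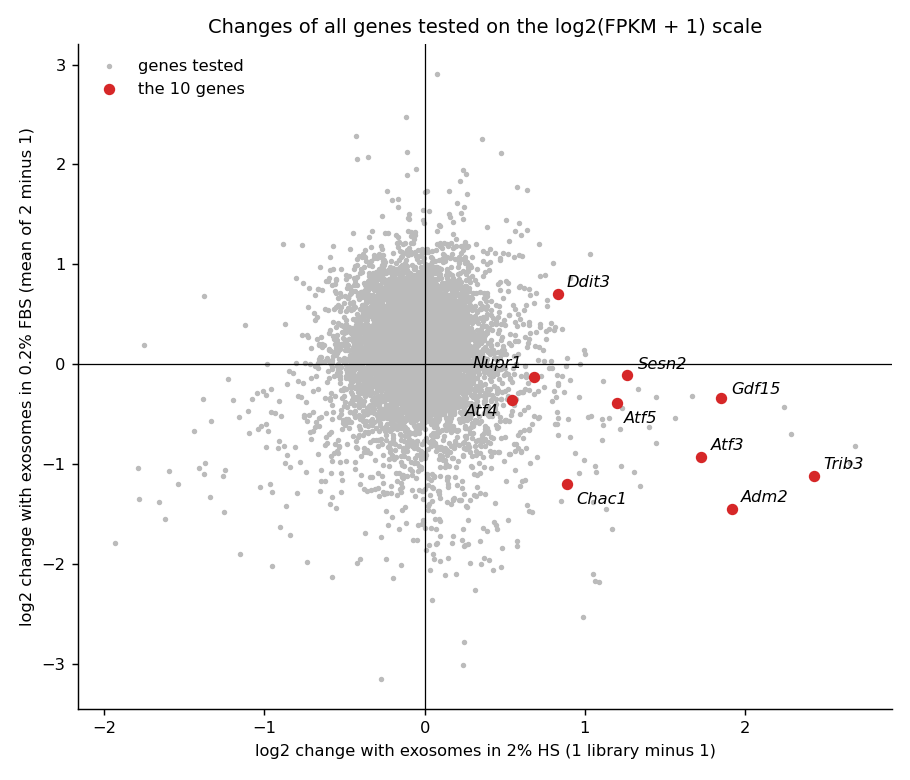
Each grey point is 1 of the 10731 genes tested, with its log2 change with exosomes in 2% HS (1 library minus 1) on the horizontal axis and in 0.2% FBS (mean of 2 minus 1) on the vertical axis, and the 10 genes are in red. No library is shared between the axes. The red points lie to the right of 0, at 0.54 to 2.43, and 9 of them below 0 on the vertical axis, with Ddit3 above it at 0.71.

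Serum reduction without exosomes was compared with growth to place these changes. Of the 10 genes, 3 were above a log2 change of 1 in 2% HS relative to 10% FBS (Adm2 1.26, Gdf15 1.15 and Chac1 1.14), against 1.79% of all genes tested, and 3 in 0.2% FBS (Gdf15 1.15, Adm2 1.12 and Trib3 1.05), also against 1.79%. Atf4 was higher by 0.24 and 0.33, and Sesn2 by 0.21 and 0.23. Ddit3 was at 0.17 in 2% HS and −0.09 in 0.2% FBS, and Atf5 at 0.02 and 0.32. The medians of the 10 were 0.44 and 0.42, beside −0.08 and −0.09 for all genes tested. The controls of the exosome comparisons are the same libraries, so a high control enters both comparisons. Measured from 10% FBS, the mean of the exosome replicates in 0.2% FBS stood at −0.02 for Atf4, −0.07 for Atf5, −0.07 for Trib3, −0.33 for Adm2, −0.36 for Chac1 and −0.42 for Atf3. The other 4 genes stood above growing cells, Gdf15 at 0.81, Ddit3 at 0.62, Nupr1 at 0.16 and Sesn2 at 0.12. The 2% HS + exosome library was above growing cells by 0.78 (Atf4) to 3.17 (Adm2). Each of these is a difference from 1 library of 10% FBS and has no test.

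The other genes of the pathway were counted from lists chosen with earlier results of these data known, so none is independent evidence of direction. Asns, Psat1 and Phgdh, like Adm2, Trib3, Chac1 and Ddit3, also stand in the study's list of genes changed with exosomes in 0.2% FBS. Of 12 tested enzymes of amino acid and one-carbon metabolism, 7 were above 1 in 2% HS, 5 were below −1 in both exosome replicates of 0.2% FBS, and 8 passed the test of the difference, beside 0.354%, 1.61% and 0.867% of all genes tested for these 3 counts. Asns, asparagine synthetase, was at 121 and 265 FPKM without and with exosomes in 2% HS, and at 126, 47.6 and 43.4 FPKM in 0.2% FBS and its replicates (difference −2.58, adjusted p = 0.0142). Mthfd2 and Aldh1l2, of mitochondrial folate metabolism, had log2 changes of 1.05 and 1.34 in 2% HS and of −1.38 and −1.22 in 0.2% FBS. The list's median was 1.04 in 2% HS and −0.73 in 0.2% FBS. For 10 amino acid transporters the medians were 0.67 and −0.42, with 2 above 1 in 2% HS, 0 below −1 in both replicates, and 3 passing the difference. Higher in 2% HS and lower in both replicates of 0.2% FBS were 7 of the 10, beside 12% of all genes tested. Slc7a5, a carrier of large neutral amino acids, had log2 changes of 1.06 and −1.02, Slc7a1, a carrier of arginine and lysine, of 0.70 and −0.93, and Slc7a11, the cystine carrier, of 0.63 and −0.83. The other 3, named after their values were seen, were higher in 0.2% FBS with exosomes: Slc43a1 (0.15 and 0.77, adjusted p = 0.0298 in 0.2% FBS), Slc38a2 (−0.12 and 0.51) and Slc36a4 (−0.45 and 0.28). The 13 genes of tRNA charging and export were higher in 2% HS and lower in both replicates of 0.2% FBS without exception. Their medians were 0.45 and −0.57, and in the unscaled fit Wars alone passed the difference (7 of the 13 did after scaling, and 2 with a pseudocount of 0.1), while Nars, Gars and Lars had the largest falls in 0.2% FBS, −0.80, −0.79 and −0.74. Of 12 further ATF4-linked genes (Nars, also among the 13, included) 4 passed the difference and 7 were higher in 2% HS and lower in both replicates of 0.2% FBS, and the medians were 0.63 and −0.18. Among these were Fgf21, a hormone like Gdf15, at 137 and 309 FPKM in 2% HS without and with exosomes and at 127, 45.0 and 35.5 FPKM in 0.2% FBS and its replicates, and Cdsn, a cell adhesion protein of skin, with changes of 2.66 and −0.99. The 5 genes without that pattern were Ndrg1 (0.27 and 0.94, adjusted p = 0.0149 in 0.2% FBS), Ddit4 (0.20 and 0.80, adjusted p = 0.0424), Map1lc3b (0.11 and 0.65), Sqstm1 (0.14 and 0.59) and Vegfa (0.74 and 0.03). The 2 rises called in this list in 0.2% FBS became 1 without a mean-variance trend, and 0 with values raised to 1 FPKM or without a filter. The rise of Slc43a1 was not called with raised values or without a filter. Calls of the difference in these 4 lists (8, 3, 1 and 4 genes) became 8, 4, 2 and 4 with a pseudocount of 0.1, 10, 6, 7 and 5 after scaling to the same 75th percentile, 7, 1, 0 and 2 without a mean-variance trend, and 0 in each list with values raised to 1 FPKM or without a filter.

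In 6 lists of upstream and neighbouring genes, 0 of 66 genes passed the limma test of the difference, and 10 had an unadjusted p under 0.05, beside 1.16% and 19.5% of all genes tested, so that these counts do not set the lists apart. Of the 66, 6 (9.09%) were higher in 2% HS and lower in both replicates of 0.2% FBS, namely Hspa9, Lonp1, Afg3l2, Eda2r, Nfe2l1 and Atf6 (Lonp1 was also counted among the ATF4-linked genes), 3 of them among the 8 mitochondrial genes, beside 12% of all genes tested. For 10 stress kinases and eIF2 regulators the medians were −0.05 in 2% HS and 0.13 in 0.2% FBS. The largest changes in 0.2% FBS were those of Eif2ak3, the kinase PERK (0.69), Eif2s1, the phosphorylated subunit of eIF2 (−0.55), and Impact, an inhibitor of the kinase GCN2 (0.47). For 10 bZIP partners the medians were 0.22 and 0.37, led by Cebpa (1.02), Nfe2l2 (0.73) and Creb1 (0.54) in 0.2% FBS. The Cebpa change was 0.63 in replicate 1 and 1.41 in replicate 2. For 10 genes of the mTORC1 sensing machinery around Sesn2 the medians were −0.07 and 0.13, with Gatsl2 at 0.46 and Wdr24 and Nprl2 at 0.37. Endoplasmic reticulum stress genes had medians of −0.10 and 0.29, with Pdia4 at 0.63, Creld2 at 0.57 and Hyou1 at 0.54. Replicates 1 and 2 lay apart here, with list medians of 0.65 and −0.01. Pdia4 was at 0.97 and 0.28 in them, Creld2 at 0.89 and 0.26, and Hyou1 at 0.86 and 0.21. Genes activated by p53, a factor that also acts on Sesn2, Gdf15 and Atf3, had medians of −0.28 and 0.09 over 12 genes. Of these, 1 was below −1 in 2% HS and 1 in both replicates, beside 0.298% and 1.61% of all genes tested. Cdkn1a (−1.12), Eda2r (−0.91) and Trp53inp1 (0.89) moved most in 0.2% FBS. Mitochondrial chaperones and proteases, 8 genes, had medians of 0.01 and −0.14, with Hspe1 at 0.39, Hspd1 at 0.35 and Hspa9 at −0.33. The Hspd1 change was 0.60 in replicate 1 and 0.11 in replicate 2. In limma, Eif2ak3 (adjusted p = 0.0375), Nfe2l2 (0.0368) and Trp53inp1 (0.0168) were called higher in 0.2% FBS, and Eda2r (0.035) lower. This fit called no other gene of the 6 lists there (Cdkn1a 0.0686), beside 8.20% of all genes tested called higher and 4.32% lower. With values raised to 1 FPKM or without a filter none was called, and without a mean-variance trend Eif2ak3 was not.

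**Figure D4:**
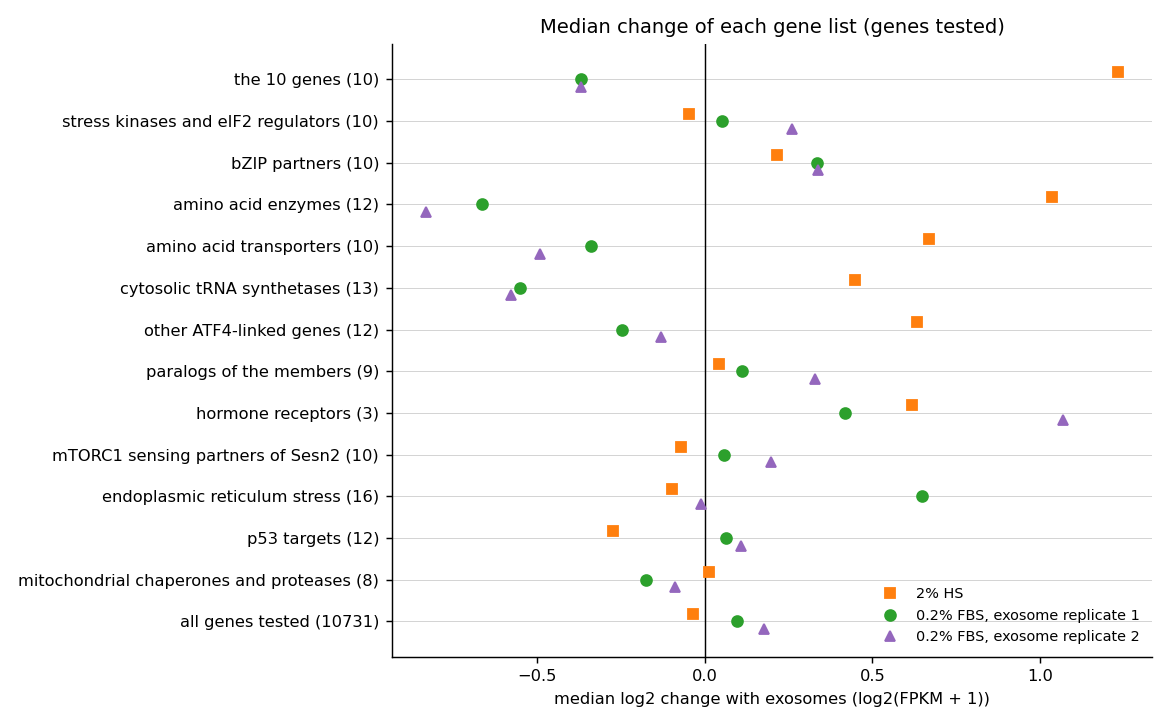
Median log2 change with exosomes on the log2(FPKM + 1) scale for each list, with the number of genes tested in brackets, as squares for 2% HS and circles and triangles for replicates 1 and 2 in 0.2% FBS. The 10 genes, the amino acid enzymes, the transporters, the tRNA synthetases and the other ATF4-linked genes have squares above 0, from 0.45 to 1.23, and circles and triangles below 0. All genes tested lie at −0.04, 0.09 and 0.18.

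The pattern over the 6 libraries was compared gene by gene as a description. Of the 10 genes, all but Ddit3 correlated with the mean of the others at r from 0.913 (Chac1) to 0.984 (Atf4), while Ddit3 had r = 0.446. Outside the 10, and among 644 tested genes with an SD of at least 0.5, Slc1a5 (r = 0.998), 3425401B19Rik (0.996), Slc3a2 (0.992), Extl1 (0.990) and Glrp1 (0.990) were nearest to the mean of the 10. Slc1a5, a glutamine carrier, was at 5.42 FPKM in 10% FBS, 7.86 in 2% HS, 16.2 in 2% HS + exosome, 7.58 in 0.2% FBS, and 6.03 and 5.66 in the exosome replicates. Slc3a2, the heavy chain that Slc7a5 pairs with, was at 64.4, 112, 232, 104, 79.0 and 66.1 FPKM in the same order. These points share 1 library, 2% HS + exosome, that lies far above the rest for the 10 genes, so the coefficients describe these libraries only.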

How the data were processed

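RNA of C2C12 cells was sequenced in 6 stranded mRNA libraries. The authors trimmed the reads with cutadapt 1.9.1, mapped them to mm10 with TopHat2 2.1.0, computed expression with Cufflinks and deposited FPKM values in 1 table with a column per library. The annotation they used is not given in the sources used here. FPKM divides reads by transcript length and library depth. Groups came from the treatment label. The members and lists were chosen with earlier results of these data known.

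Values were compared as log2(FPKM + 1), which understates the change of low genes, over the 10731 genes averaging 1 FPKM or more. The threshold of 1 on the log2 scale is that of the study's methods. limma 3.58.1 in R 4.3.3 fitted 1 mean per condition to the 6 libraries, with a mean-variance trend and Benjamini-Hochberg adjustment over all genes tested. A second fit, of the 5 differentiating libraries, had medium and 1 exosome effect. The 2% HS change, 1 library minus 1, was given no p of its own but is 1 arm of the tested difference between the changes. The fits were tested on simulated data with the same spread in all 6 libraries, so that step cannot check the equal spread they assume. Of the 20950 entries 4500 were at 0 in every library.

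Read depth was estimated from the spacing of low FPKM values in 2442 genes with 1 annotated, long transcript, assuming 200-base fragments, as the depth at which the values lie nearest whole reads (within 0.1 of a read). Between 73.6% and 76.3% did so, where 20% would if spread evenly. Reads of a gene are estimates from its principal transcript, so no counting interval was computed. Sequences were read from RefSeq promoters (GRCm38.p6). Every member and, in each list, the 3 tested genes with the largest change in 0.2% FBS are named, with the 5 genes most like the mean of the members. Alternatives were the pseudocount, the filter, the scaling, the trend, leaving out either replicate and a block. Sequence reads, RT-qPCR, staining and gene transfer experiments were not analysed here.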

Additional observations from a re-analysis of the deposited data

Results flagged for a closer look

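The exosome changes of the 2 media differed past the limma test of the difference for 7 of the 10 genes, in a fit whose spread comes from replicates 1 and 2 of 0.2% FBS + exosome alone and whose 2% HS change is 1 library minus 1, so that medium and single culture cannot be told apart. Subtracting the 2% HS change from the 0.2% FBS change gave log2 values of −3.55 for Trib3, −3.37 for Adm2, −2.65 for Atf3, −2.19 for Gdf15, −2.09 for Chac1, −1.58 for Atf5 and −1.37 for Sesn2, with adjusted p from 0.0036 to 0.0395. For Atf4 the single libraries moved in opposite directions, up in 2% HS and down in both replicates of 0.2% FBS, but the difference of −0.90 did not pass (adjusted p = 0.27). No group has 4 or more libraries, so no library could be set against its own group.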

How the results depend on the processing

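The direction of the difference between the media was kept for 9 of the 10 genes under all alternatives run, and turned for Ddit3, from −0.12 to 0.21, without replicate 2 of 0.2% FBS + exosome (−0.45 without replicate 1), its difference passing no test. Trib3 lay between −3.99 and −3.55, and Adm2 between −3.75 and −3.37 in those with a test. The range of adjusted p was 0.00047 to 0.293 for Trib3, 0.000631 to 0.293 for Adm2 and 0.00193 to 0.293 for Gdf15, and 0.0079 to 0.293 for Atf5. It was 0.00843 to 0.44 for Atf3, 0.00594 to 0.365 for Chac1 and 0.00968 to 0.293 for Sesn2. The 7 calls for this difference became 3 without a trend, 0 with values raised to 1 FPKM and 0 without a filter, and the 3 falls called in 0.2% FBS became 0 with raised values, 0 without a filter and 4 after scaling, where Atf3 passed (−1.01, adjusted p = 0.0311). The degrees of freedom after moderation were 8.28 in the reported fit and 6.98, 3.47 and 1.73 in those 3. Leaving out either exosome replicate leaves that fit without residual degrees of freedom, so only values could be given.

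For all genes tested, in 2% HS a pseudocount of 0.1 gave 69 genes above 1 and 57 below −1, and raising values to 1 FPKM gave 69 and 54. In 0.2% FBS the genes above 1 in both replicates were 193 with a pseudocount of 0.1, 182 with values raised to 1 and 63 after scaling. Falls called by limma in 0.2% FBS numbered 0 with values raised to 1, 240 without a filter and 803 after scaling, and rises 0 with raised values and 1 without a filter. Genes lower in 0.2% FBS by the difference were 0, 339 and 262 under the same 3 and 40 without a trend, and those higher were 0, 100, 115 and 5, and 58 with a pseudocount of 0.1. Genes higher in 2% HS and lower in 0.2% FBS numbered 2008 without a filter and 2049 after scaling. After scaling the median of the 10 genes was −0.48 in 0.2% FBS and −1.97 for the difference. The fit with a common effect called 21 genes without a filter. The cause of these shifts was not tested.

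With 1 exosome replicate at a time, 2 to 4 of the 10 genes were below −1 (Atf3, Trib3, Chac1 and Adm2 in replicate 2) and 0 to 1 above 1 (Ddit3 in replicate 1). Over all genes these were 183 to 305 and 155 to 312, and 1465 to 1948 were higher in 2% HS and lower in 0.2% FBS. With the number in the sample titles as a replicate block, the common effect called 0 of the 10 and 0 genes in all. The titles give 1 to both 2% HS libraries, 2 to 0.2% FBS and exosome replicate 1, and 3 to exosome replicate 2, which has no control of its number. If the numbers mark batches, which the labels do not say, batch cannot be told apart from the medium, nor from the gap between replicates 1 and 2.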

Other observations

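Relatives and receptors of the 10 genes were also read from the table. Of 9 tested paralogs, with medians of 0.04 in 2% HS and 0.22 in 0.2% FBS, 0 passed the limma test of the difference and 2 had an unadjusted p under 0.05, beside 1.16% and 19.5% of all genes tested. Sesn1 was at 19.0 and 15.6 FPKM without and with exosomes in 2% HS, and at 20.5, 35.9 and 28.9 FPKM in 0.2% FBS and its replicates. In 0.2% FBS the log2 change was 0.94 for Sesn3 (0.62 in replicate 1 and 1.26 in replicate 2) and 0.38 for Atf2, neither past the test. Of 7 genes for receptors of the hormones 3 were tested, with medians of 0.62 and 0.58. Calcrl, the receptor subunit through which Adm2 acts, was at 11.1 and 17.6 FPKM in 2% HS and at 12.1, 16.5 and 27.1 FPKM in 0.2% FBS and its replicates. For its partner Ramp2 the log2 change was 0.76 in 2% HS, 0.10 in replicate 1 and 1.07 in replicate 2. For Ramp1 these were −0.25, 0.88 and −0.08, so the replicates differ in direction. The other 4 did not exceed 1 FPKM in any library.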
